A study of Homo sapiens with 6 samples.

Results

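CC chemokine ligands were followed across KO52 cells that carried an empty vector (EV), a dominant negative C/EBP peptide (dnCEBP) or a dominant negative FOS peptide (dnFOS). The members were the 8 genes of this family listed for these cells: CCL2, CCL3, CCL3L1, CCL4, CCL4L2, CCL5, CCL23 and CCL28. They were taken by symbol from 60612 gene IDs in the count tables, and all 8 passed the filter on low counts, as did 15395 genes in all. In the order given, their Ensembl IDs are ENSG00000108691, ENSG00000277632, ENSG00000276085, ENSG00000275302, ENSG00000276070, ENSG00000271503, ENSG00000274736 and ENSG00000151882. CCL3L1 and CCL4L2 are copies of CCL3 and CCL4, and each pair of copies was also summed.

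KO52 is an established acute myeloid leukemia (AML) line, labelled as a CEBPA double mutant, and all 3 groups are of this line. RNA was sequenced from 6 libraries, 2 per group, after lentiviral transduction with the doxycycline-inducible vector pCW57.1. The vector held dnCEBP, dnFOS or no insert, and GFP positive cells were sorted after doxycycline. The induction time of these libraries is not given in the labels, and neither is whether the 2 libraries of a group came from separate cultures, so p-values measure only the spread between these libraries.

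CC chemokines are small secreted proteins, named for a pair of adjacent cysteines, that draw leukocytes along a concentration gradient through G protein-coupled receptors. In myeloid cells many of them are induced by inflammatory signals, with NF-kappaB, AP-1 and C/EBP factors among the known regulators of their promoters. AP-1 and C/EBP factors bind DNA as dimers, and the dominant negative peptides pair with family members so that the dimer no longer binds.

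Total counts ran from 21681121 to 27663179 in the EV and dnCEBP libraries and from 9862994 to 14583615 in the dnFOS libraries, so depth and dnFOS cannot be told apart. A count of 3 was worth 0.108 to 0.304 CPM, counts scaled to library size, across the libraries. Of 9 markers of myeloid blasts, CD34, of early progenitors, ran from 114 to 154 CPM and CD33, a myeloid surface protein, from 54.7 to 64.1 CPM, whereas ELANE, a granule protease, had at most 9 counts and was at 0 in 3 libraries. Of 7 monocyte markers, 4 passed the filter on low counts, among them LYZ at 53.2 to 78.5 CPM. CD163 was at 0 in all 6 libraries and CD14 was at 6 counts or fewer.

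The copies were examined first, because reads of near-identical genes can be assigned to the wrong one. All members except CCL28 lie on chromosome 17, and 6 of them, from CCL5 to CCL4L2, lie within 341 kb (GRCh38, GENCODE 29). CCL4 is at chr17:36103590-36105621 and CCL4L2 at chr17:36210924-36212878, both on the plus strand. The coding sequences of CCL3 and CCL3L1 show how far copies can be told apart, with the bases that differ in capitals. They come from the GENCODE 29 transcripts of CCL3 (chr17:36088256-36090169, minus strand) and CCL3L1 (chr17:36194869-36196758, minus strand), where the intervals are those of the genes.
CCL3: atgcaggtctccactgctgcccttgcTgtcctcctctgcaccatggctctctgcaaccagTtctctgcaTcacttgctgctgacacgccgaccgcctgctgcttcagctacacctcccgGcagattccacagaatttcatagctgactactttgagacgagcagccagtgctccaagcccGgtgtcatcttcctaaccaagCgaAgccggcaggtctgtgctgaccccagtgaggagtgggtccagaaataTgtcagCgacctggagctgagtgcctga
CCL3L1: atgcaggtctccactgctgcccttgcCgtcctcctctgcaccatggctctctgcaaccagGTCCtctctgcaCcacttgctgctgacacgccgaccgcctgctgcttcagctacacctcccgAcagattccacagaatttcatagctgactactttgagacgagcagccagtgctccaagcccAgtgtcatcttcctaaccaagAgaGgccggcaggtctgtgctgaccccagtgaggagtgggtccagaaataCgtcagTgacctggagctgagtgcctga

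CCL3 and CCL3L1 were identical at 95.74% of 282 aligned coding positions, with 9 mismatches and a gap of 3 bases. The differences are spread along the sequence, and the transcripts differ further outside the coding part. Of the 75-base windows in the transcripts of CCL3, the length of 1 read, 0.574% also occurred in CCL3L1, and of those in CCL4, 5.14% also occurred in CCL4L2. The windows were pooled over all annotated transcripts of a gene, and for CCL4 these cover its whole interval of 2032 bases, introns included. The share among reads of spliced RNA was not computed and could be larger. How reads with several matches were counted is not given in the sources used here.

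Overlaps with genes on the opposite strand were larger. In CCL3, 62.05% of the windows also lie in an antisense gene, AC243829.4, which was at 0 counts in all 6 libraries. In CCL3L1, 17.72% lie in the antisense gene AC243829.1, with 14 to 56 counts. Whether counting used the strand is not given in the sources used here, so reads of a gene and its antisense partner cannot be told apart, which leaves the level of CCL3 uncertain.

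In EV libraries the members differed widely in level. Exon lengths cover all annotated transcripts, and for CCL2 and CCL4 they equal the whole gene, introns included. The order per kb therefore depends on the annotation. Per kb of exon, CCL3L1 was highest at 26.2 ± 0.691 CPM per kb (SD, n = 2), and CCL4 was lowest at 0.558 ± 0.057 CPM per kb. CCL3 and CCL4 and their copies encode the macrophage inflammatory proteins 1-alpha and 1-beta, attractants of monocytes and T cells. CCL2, the monocyte attractant MCP-1, stood at 7.84 ± 0.888 CPM per kb and CCL4L2 at 7.65 ± 0.946 CPM per kb, and their ranges overlapped. CCL3 followed at 4.54 ± 0.653 CPM per kb. CCL23, an attractant of monocytes and resting T cells, was at 3.18 ± 0.238 CPM per kb, CCL28, a mucosal attractant for CCR10 cells, at 3.12 ± 0.00588 CPM per kb and CCL5 (RANTES), an attractant of T cells and monocytes, at 2.92 ± 0.618 CPM per kb. The ranges of neighbours among these 3 overlapped.

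The order changed in places with the peptides. In dnCEBP libraries CCL23 stood next below CCL4L2, at 4.96 ± 0.204 CPM per kb, above CCL3 at 3.56 ± 0.147 CPM per kb. In dnFOS libraries CCL28 stood next below CCL2, at 3.21 ± 0.24 CPM per kb, and CCL3 lay above CCL4 alone, at 1.11 ± 0.284 CPM per kb. Ranges overlapped between neighbours from CCL3 through CCL5 to CCL28 in dnCEBP, and from CCL28 through CCL4L2 and CCL23 to CCL5 in dnFOS. CCL3L1 was highest and CCL4 lowest in all 3 groups.

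**Figure D1:**
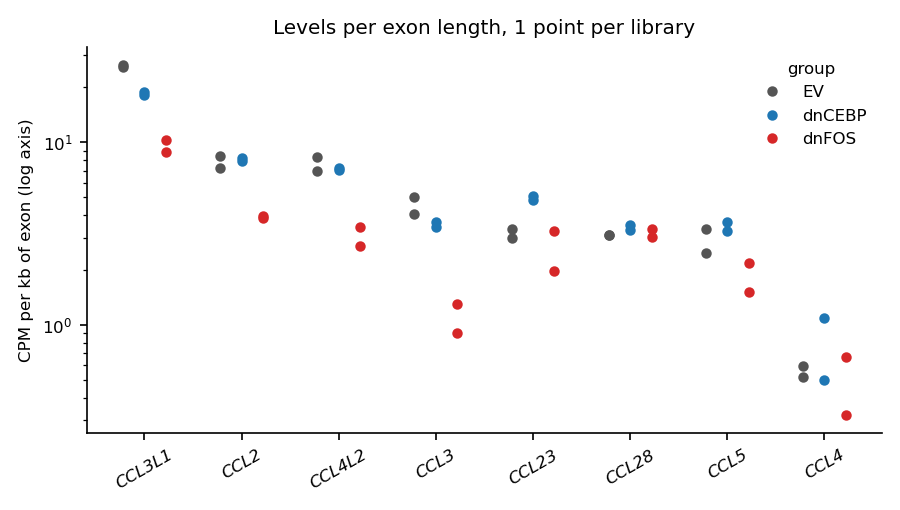
Level of each ligand in CPM per kb of exon on a log axis, with 1 point per library and 2 libraries per group, ordered by the mean in EV. CCL3L1 is highest and CCL4 lowest in each group, and the dnFOS points of CCL3 (mean 1.11) lie well under those of EV (mean 4.54).

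The first comparison asked what dnFOS did to the ligands relative to EV. In dnFOS libraries 4 of the 8 ligands were lower (CCL2, CCL3, CCL3L1 and CCL4L2), with estimates of 2-fold or more. The estimate of CCL2 lay at this limit, and the intervals of CCL2 and CCL4L2 crossed it. Over all genes tested, 15% were called in either direction, 7.76% were called lower and 1.16% were called lower by at least 2-fold. Summed over the 8 genes, the level was 96.4 and 90.8 CPM in EV libraries and 47.8 and 48.2 CPM in dnFOS libraries. The ligand estimates had a median log2 fold change of -0.85, beside 0.00 over all genes tested. In bulk libraries, fewer cells of a type and less RNA per cell cannot be told apart.

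CCL2 was at 16.8 and 14.3 CPM in EV, 15.6 and 16.2 CPM in dnCEBP and 7.81 and 7.64 CPM in dnFOS. Both dnFOS libraries lay below all other libraries, and EV and dnCEBP overlapped. The log2 fold change of dnFOS against EV was -1.01 (edgeR adjusted p = 0.000128, SE 0.17), a 2.01-fold lower level with a 95% interval from -1.36 to -0.67 on the log2 scale. The estimate was under 2-fold with library totals (-0.91) and without EV replicate 1 (-0.89) or dnFOS replicate 2 (-0.996), and the call held in each. CCL2 (chr17:34255218-34257203, plus strand) lies 1.61 Mb away from the other members of chromosome 17, and none of its 75-base windows occurs in another gene.

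CCL3 was at 7.47 and 6.09 CPM in EV, 5.48 and 5.16 CPM in dnCEBP and 1.95 and 1.35 CPM in dnFOS. The groups did not overlap, with dnFOS lowest, and the dnFOS values rest on 30 and 14 counts. Against EV the log2 fold change in dnFOS was -2.00 (edgeR adjusted p = 1.09e-05, SE 0.28), a 3.99-fold lower level.

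CCL3L1, the highest member per kb of exon, was at 37.8 and 39.2 CPM in EV, 26.6 and 27.8 CPM in dnCEBP and 15.2 and 13.1 CPM in dnFOS. The 3 groups were again apart. Its log2 fold change in dnFOS was -1.44 (edgeR adjusted p = 4.81e-09, SE 0.13). With the copies summed, CCL3 and CCL3L1 were at 45.3 and 45.3 CPM in EV and 17.1 and 14.4 CPM in dnFOS, a difference of -1.51 on the log2 scale (edgeR adjusted p = 6.98e-10, SE 0.13). The sum does not depend on which copy a read was assigned to.

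The share of the sum that was assigned to CCL3 was 16.5% (95% Wilson interval 14.4 to 18.8) and 13.4% (11.5 to 15.7) in EV libraries, from 1079 and 990 counts. In dnFOS libraries it was 11.4% (8.11 to 15.8) and 9.40% (5.68 to 15.2), from 263 and 149 counts. The dnFOS shares were the lowest of the 6, but their intervals overlap those of EV libraries, and the difference between the copies was not tested. These intervals cover counting error only.

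CCL4L2 was at 11.6 and 9.75 CPM in EV, 10.1 and 9.90 CPM in dnCEBP and 3.78 and 4.83 CPM in dnFOS. Both dnFOS libraries were below the other 4, while EV and dnCEBP overlapped. The log2 fold change in dnFOS was -1.33 (edgeR adjusted p = 5.81e-05, SE 0.21), with a 95% interval from -1.76 to -0.91. CCL4 itself was near the limit of the tables, where the EV libraries had 29 and 23 counts, the dnCEBP libraries 60 and 21 and the dnFOS libraries 10 and 14. At 1.22 and 1.05 CPM in EV and 0.651 and 1.35 CPM in dnFOS its groups overlapped, and a log2 fold change of -0.24 had a 95% interval from -1.31 to 0.83 (edgeR adjusted p = 0.812). The sum of CCL4 and CCL4L2 was lower, at -1.18 on the log2 scale (edgeR adjusted p = 0.00017, SE 0.20).

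CCL5 (chr17:35871491-35880793, minus strand) was at 5.08 and 3.75 CPM in EV, 5.51 and 4.92 CPM in dnCEBP and 2.28 and 3.29 CPM in dnFOS. The dnFOS libraries were the lowest 2, but the log2 fold change against EV, -0.70 (SE 0.28), did not pass the threshold (edgeR adjusted p = 0.0891). Of its 75-base windows, 8.21% also occur in other genes.

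CCL23 (chr17:36013056-36017968, minus strand) was at 2.22 and 2.47 CPM in EV, 3.55 and 3.77 CPM in dnCEBP and 2.41 and 1.45 CPM in dnFOS. EV and dnFOS overlapped, and dnFOS differed by -0.24 on the log2 scale (edgeR adjusted p = 0.691, SE 0.33). CCL28, on chromosome 5 (chr5:43376645-43412391, minus strand), was at 14.1 and 14.1 CPM in EV, 15.0 and 15.9 CPM in dnCEBP and 13.7 and 15.3 CPM in dnFOS. It was the member nearest to 0, with a log2 fold change of 0.03 and a 95% interval from -0.28 to 0.35 (edgeR adjusted p = 0.915).

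In this comparison 5 of the 8 ligands had dnFOS libraries that lay wholly below EV, beside 28.4% of all genes tested. Under library totals alone the median of all genes shifted to 0.10 on the log2 scale and lower genes made up 26.2% of the calls, against 51.7% with the TMM scaling used here. The 4 ligands were called lower under both scalings. Summed levels of marker lists moved as well. The 9 blast markers summed to 573 and 512 CPM in EV, 376 and 338 CPM in dnCEBP and 482 and 438 CPM in dnFOS. Of the 8 tested, 3 were lower in dnFOS than in EV, beside 7.76% of all genes tested called lower. The same share stands beside the calls in the other marker lists. MPO, the myeloperoxidase of granules, was at 239 and 194 CPM in EV, 63.5 and 53.0 CPM in dnCEBP and 153 and 140 CPM in dnFOS. It was lower in dnFOS (log2 fold change -0.56, edgeR adjusted p = 0.000273) and in dnCEBP (-1.89, edgeR adjusted p = 5.03e-13) than in EV. The other two were granule proteins at low counts. AZU1 was counted 34 and 41 times under EV but 3 and 1 times under dnFOS, and PRTN3 was counted 14 and 22 times under EV but 1 and 0 times under dnFOS. Of the 8 blast markers tested, 7 had estimates below 0 in dnFOS against EV. CSF3R went the other way, at 0.26 (edgeR adjusted p = 0.0538), and was not called. In dnCEBP against EV, 2 of the 8 were lower, MPO and CSF3R (-0.50, edgeR adjusted p = 0.00421), beside 0.448% of all genes tested. The 7 monocyte markers summed to 80.7 to 82.9 CPM in EV and 55.1 to 63.8 CPM in dnFOS, and nearly all of it was LYZ, a granule lysozyme that was lower in dnFOS (log2 fold change -0.44, edgeR adjusted p = 0.00233). The 9 T and NK cell markers summed to 176 to 188 CPM in EV, 207 to 209 CPM in dnCEBP and 147 to 166 CPM in dnFOS, mostly as CD3D, a T cell receptor subunit. CD3D (log2 fold change -0.28, edgeR adjusted p = 0.0287) and NKG7, of cytotoxic granules (-0.39, edgeR adjusted p = 0.0342), were lower in dnFOS than in EV, while CD3E and CD8A had at most 4 and 3 counts in any library. The 4 B cell markers summed to 16.1 to 19.5 CPM in EV, 16.0 to 16.9 CPM in dnCEBP and 11.3 to 14.3 CPM in dnFOS, and neither of the 2 tested was called in dnFOS against EV. The 4 epithelial markers summed to 72.3 to 87.6 CPM in EV, 78.3 to 78.8 CPM in dnCEBP and 67.3 to 71.6 CPM in dnFOS. The keratins KRT8 (log2 fold change -0.80, edgeR adjusted p = 0.00499) and KRT18 (-0.43, edgeR adjusted p = 0.0157) were lower in dnFOS than in EV, and EPCAM, an adhesion protein, had 0.21 and was not called. The 4 erythroid markers summed to 0.677 to 2.997 CPM across the libraries. The part of these markers in the ligand result was not tested.

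**Figure D2:**
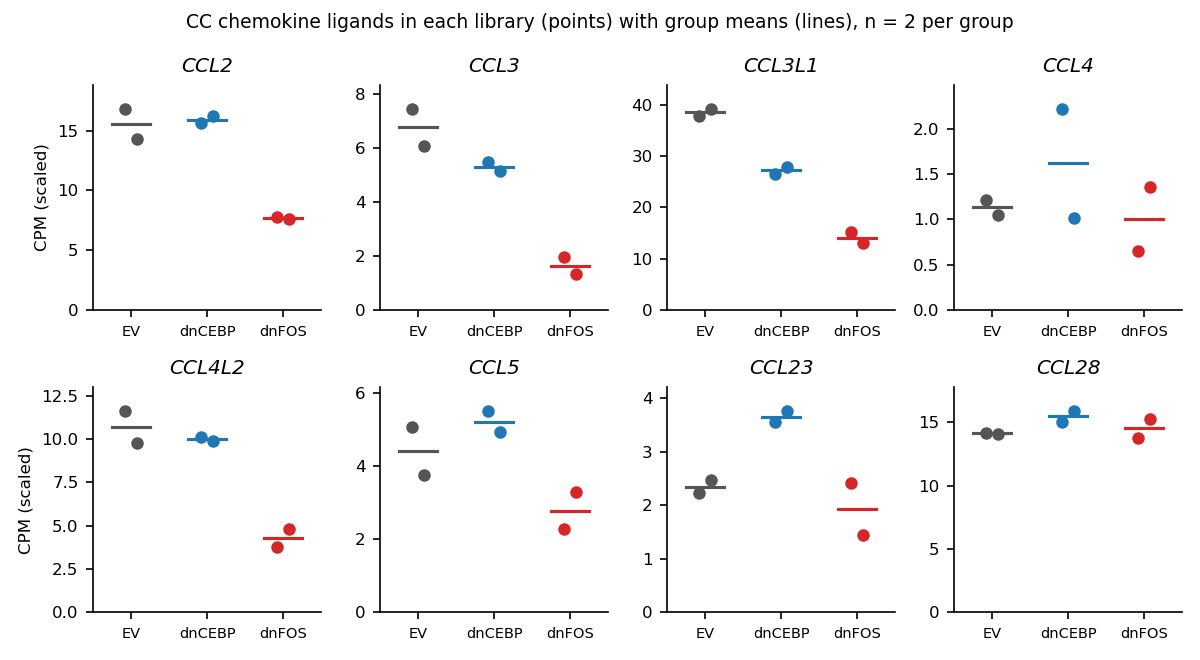
Scaled CPM (vertical axes, from 0) of each CC chemokine ligand in the 6 libraries, as points, with a line at each group's mean. In CCL2, CCL3, CCL3L1 and CCL4L2 both dnFOS points lie below all EV and dnCEBP points, whereas the 3 groups of CCL28 lie between 13.7 and 15.9 CPM.

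The comparison of dnCEBP with EV asked the same of the C/EBP peptide. Of the 8 ligands 1 was called, CCL3L1, beside 1.07% of all genes tested called in either direction and 0.448% called lower. CCL3L1 was 1.42-fold lower, by -0.50 on the log2 scale (edgeR adjusted p = 0.0254, SE 0.12), and the sum with CCL3 was lower by nearly as much, at -0.48 (edgeR adjusted p = 0.0264, SE 0.11). The call did not hold without EV replicate 1 (edgeR adjusted p = 0.119), EV replicate 2 (0.192), dnCEBP replicate 1 (0.104) or dnCEBP replicate 2 (0.192), although the estimate stayed between -0.53 and -0.47.

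The other ligands were not called against EV in dnCEBP, and the median log2 fold change of the 8 was 0.08, beside -0.0022 over all genes tested. CCL3 had a log2 fold change of -0.35 (SE 0.22) and its 2 groups did not overlap. CCL23 was higher in both dnCEBP libraries than in both EV libraries, by 0.64 on the log2 scale (edgeR adjusted p = 0.371, SE 0.29). The groups of CCL28 were also apart, with a log2 fold change of 0.13 (SE 0.14). In all, 4 of 8 ligands had groups that did not overlap, 2 of them with dnCEBP lower, beside 42.8% of all genes tested in either direction and 20.9% with dnCEBP lower. CCL2, CCL4L2 and CCL5 had values of 0.03, -0.10 and 0.24, and CCL4 had 0.53 with an interval from -0.40 to 1.46, the widest of the 8.

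The direct comparison of the peptides tested whether dnFOS and dnCEBP differed. Relative to dnCEBP, 5 of the 8 ligands were lower in dnFOS, beside 14.7% of all genes tested called in either direction and 7.84% called lower. The median of the 8 was -0.94, beside 0.02 over all genes tested. The log2 fold change was -1.65 for CCL3 (edgeR adjusted p = 0.000123, SE 0.28) and -1.24 for CCL4L2 (edgeR adjusted p = 0.000109, SE 0.21). It was -1.04 for CCL2 (edgeR adjusted p = 6.12e-05, SE 0.17) and -0.94 for CCL3L1 (edgeR adjusted p = 7.89e-06, SE 0.13). The pair sums differed likewise, by -1.03 for CCL3 with CCL3L1 (edgeR adjusted p = 8.41e-07, SE 0.13) and by -1.16 for CCL4 with CCL4L2 (edgeR adjusted p = 0.000159, SE 0.20).

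CCL5 was the fifth, at -0.94 on the log2 scale (edgeR adjusted p = 0.0185, SE 0.27), a call that did not hold without dnCEBP replicate 1 (edgeR adjusted p = 0.116) or without dnFOS replicate 1 (0.219). CCL23 was at -0.88 (edgeR adjusted p = 0.0615, SE 0.32) and passed the threshold without EV replicate 1 (0.0499) and without dnFOS replicate 1 (0.03995). CCL4 had -0.77 with an interval from -1.80 to 0.26, and CCL28 had -0.10 with an interval from -0.41 to 0.22. In 6 ligands both dnFOS libraries lay below both dnCEBP libraries, beside 25.9% of all genes tested.

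**Figure D3:**
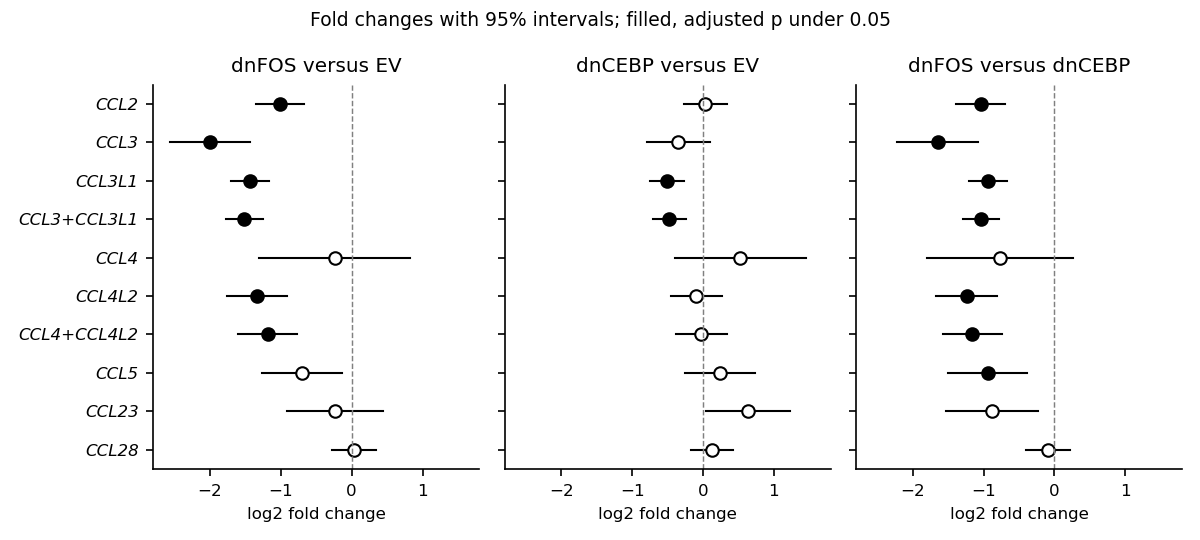
Log2 fold changes (horizontal axes) of the 8 ligands and the 2 pair sums in the 3 comparisons, with 95% intervals from the edgeR fit, filled where the adjusted p was under 0.05. Filled points number 4 of 8 ligands in dnFOS versus EV, 1 in dnCEBP versus EV (CCL3L1) and 5 in dnFOS versus dnCEBP.

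Position was compared next, since 6 ligands lie within 341 kb, with other genes such as RDM1 between them. Within 500 kb of the stretch from CCL5 to CCL4L2, 23 other genes were tested. In dnFOS against EV their median log2 fold change was 0.02, and 1 was called lower and 1 higher. Over all genes tested, 15% were called in either direction and 7.76% were called lower. The lower gene was SLFN14, a ribosome-associated endoribonuclease, at -0.80 (edgeR adjusted p = 0.0174, SE 0.23), and the higher was SLFN11, which blocks replication under stress, at 0.41 (edgeR adjusted p = 0.00155, SE 0.09). Against dnCEBP, dnFOS had SLFN14 and ZNHIT3 lower and SLFN11 and TAF15 higher, beside 14.7% of all genes tested called in either direction and 7.84% called lower. Near CCL2, 1 gene was tested and was not called. Near CCL28, 13 were tested, and 1 was called in dnFOS against EV, beside the same 15% of all genes tested. This was HMGCS1, an enzyme of cholesterol synthesis, higher in dnFOS (log2 fold change 0.25, edgeR adjusted p = 0.0402, SE 0.08).

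**Figure D4:**
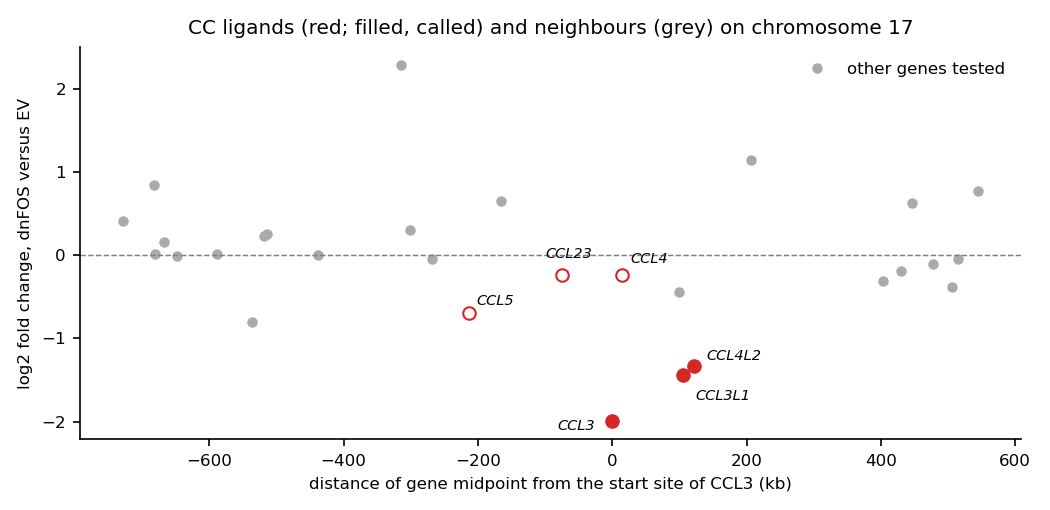
Log2 fold change of dnFOS versus EV (vertical axis) against the distance of each gene's midpoint from the start site of CCL3 in kb, for the 6 ligands from CCL5 to CCL4L2 (red, filled where called) and the 23 neighbours tested within 500 kb (grey). CCL3, CCL3L1 and CCL4L2 lie at -1.33 or below, and the neighbours have a median of 0.02.

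The start sites of CCL3 and CCL3L1 were examined because these copies fell together in dnFOS. RefSeq promoters (GRCh38) were found for CCL3, CCL3L1 (there named CCL3L3), CCL23 and CCL28, 4 of the 8 members, and not analysed here for CCL2, CCL4, CCL4L2 and CCL5. The 250 bases before the start site are printed for CCL3 (chr17:36090144-36090393, minus strand) and CCL3L1 (chr17:36196759-36197008, minus strand), with motif matches in capitals.
CCL3: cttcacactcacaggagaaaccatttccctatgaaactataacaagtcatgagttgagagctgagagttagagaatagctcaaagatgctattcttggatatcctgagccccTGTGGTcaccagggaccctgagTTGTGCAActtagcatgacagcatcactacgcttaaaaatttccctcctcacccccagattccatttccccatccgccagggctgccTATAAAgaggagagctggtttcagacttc
CCL3L1: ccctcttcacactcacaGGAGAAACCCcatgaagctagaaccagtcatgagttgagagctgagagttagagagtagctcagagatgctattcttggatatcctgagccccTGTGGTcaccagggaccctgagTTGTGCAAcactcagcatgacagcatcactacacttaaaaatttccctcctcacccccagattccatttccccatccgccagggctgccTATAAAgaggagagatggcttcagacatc

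The sequences were identical at 91.02% of their aligned positions. Both hold TTGTGCAA, a match to the C/EBP motif TTGCNNAA on the reverse strand, with its first base at -116 in CCL3 and -118 in CCL3L1 from the start site. Both also hold the RUNX motif TGTGGT, at -138 and -140, and TATAAA at -29. Neither holds the AP-1 motif TGANTCA or the C/EBP:AP-1 composite TGATGCAA in these letters. A match to the NF-kappaB motif (a run of G, a free spacer and a run of C), on the reverse strand, was found in CCL3L1 at -233 and not in the same stretch of CCL3. Both strands were searched, and the capitals do not overlap.

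Across 35116 RefSeq promoters of 300 bases, 10.5% held the C/EBP motif, 13.1% the RUNX motif, 11.5% TATAAA, 58.7% the NF-kappaB motif, 7.71% the AP-1 motif and 0.866% the composite. The windows of CCL23 and CCL28 held no AP-1, C/EBP, composite or RUNX match, while CCL23 held TATAAA at -15 and 1 of the 2 windows of CCL28 an NF-kappaB match at -48. Whether matches go with the calls was not tested, as promoters were at hand for 4 of the 8 members, with CCL3 and CCL3L1 being copies. The 2 further RefSeq starts of CCL3 had windows with no AP-1, C/EBP or composite match and no TATAAA. These windows overlap and share a single RUNX match, at -83 and -238 from their own starts. The first also held an NF-kappaB match at -112. A match is a run of letters, and the binding of a factor was not measured here.

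The remaining CC ligands were nearly silent. Of 20 further symbols listed, 18 had a gene ID in the tables. The 2 without one were CCL4L1 and CCL3L3, and the latter is the RefSeq name of the member CCL3L1. Of the 18, 13 were at 0 in all 6 libraries and none passed the filter on low counts. The highest count was 9, for CCL1, a T cell product, for which the EV libraries had 1 and 9 counts, the dnCEBP libraries 5 and 3 and both dnFOS libraries 0. CCL26, an eosinophil attractant, was counted 8 and 4 times in the EV libraries, 0 and 1 times in the dnCEBP libraries and 0 times in both dnFOS libraries. Both were named after their values were seen, and the filter on low counts left them out of the test. A count of 0 in the dnFOS libraries allows a level of up to 0.206 and 0.304 CPM.

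Of 13 listed genes of the CC receptor family, atypical receptors included, 6 were tested. The list was not limited to receptors of the 8 ligands. In dnFOS 1 of the 6 was lower than in EV, beside 15% of all genes tested called in either direction and 7.76% called lower, so this count is near the background. In dnCEBP 1 was higher, beside 1.07% of all genes called in either direction. Both were CCRL2, an atypical receptor that binds chemerin without signalling. CCRL2 was at 20.5 and 17.6 CPM in EV, 27.1 and 29.4 CPM in dnCEBP and 15.0 and 11.9 CPM in dnFOS, with no overlap between groups. Its log2 fold change was -0.49 in dnFOS (edgeR adjusted p = 0.024, SE 0.15) and 0.57 in dnCEBP (edgeR adjusted p = 0.0288, SE 0.14) against EV, and -1.06 between the peptides (edgeR adjusted p = 6.18e-06, SE 0.15). The other 5 receptors tested, CCR1, CCR2, CCR4, CCR7 and ACKR2, were not called in any of the 3 comparisons. Over the 6 receptors the log2 fold change ran from -1.07 to 0.48 in dnFOS and from -0.29 to 1.41 in dnCEBP against EV.

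Of 18 genes that carry or end chemokine signals, 6 were lower in dnFOS than in EV, beside 7.76% of all genes tested, and the 18 had a median of -0.25, beside 0.00. RGS2 and RGS1 encode proteins that switch off G protein signals. RGS2 was at 71.5 and 69.1 CPM in EV and 31.2 and 29.5 CPM in dnFOS (log2 fold change -1.21, edgeR adjusted p = 4.79e-10, SE 0.10). RGS1 was at 41.0 and 43.3 CPM in EV, 54.98 and 60.5 CPM in dnCEBP and 21.7 and 22.9 CPM in dnFOS, lower in dnFOS by -0.92 (edgeR adjusted p = 1.90e-06, SE 0.12) and higher in dnCEBP by 0.45 (edgeR adjusted p = 0.0236, SE 0.11). RGS1 was the call among the 18 in dnCEBP against EV, where 1.07% of all genes tested were called in either direction. RAC2, a GTPase of leukocyte migration, had -0.39 in dnFOS (edgeR adjusted p = 0.00233, SE 0.09). GNAI1, an inhibitory G protein subunit, was not called against EV but was lower in dnFOS than in dnCEBP, by -0.75 (edgeR adjusted p = 0.000152, SE 0.13), as were 5 of the 18 in all, beside 7.84% of all genes tested.

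Among 15 subunits, regulators and inducers of NF-kappaB, 6 were lower in dnFOS than in EV, beside 7.76% of all genes tested, and the 15 had a median of -0.50, beside 0.00. NFKBIA, the inhibitor that holds NF-kappaB in the cytoplasm, was at 44.7 and 36.2 CPM in EV and 23.1 and 23.7 CPM in dnFOS (log2 fold change -0.79, edgeR adjusted p = 5.53e-05, SE 0.12). TNIP1, which restrains the pathway, had -0.50 (edgeR adjusted p = 0.000354, SE 0.09) and NFKB2, a subunit, -0.67 (edgeR adjusted p = 0.0022, SE 0.15). TNF, a cytokine that induces the pathway, was at 6.75 and 3.98 CPM in EV, 10.1 and 9.80 CPM in dnCEBP and 3.84 and 4.64 CPM in dnFOS. TNF was higher in dnCEBP than in EV (log2 fold change 0.89, edgeR adjusted p = 0.0306, SE 0.21), the call among the 15 in that comparison, beside 1.07% of all genes tested called in either direction, and lower in dnFOS than in dnCEBP (-1.25, edgeR adjusted p = 0.000479, SE 0.24). EV and dnFOS overlapped for TNF. The comparisons of each peptide with EV share the same 2 EV libraries.

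**Figure D5:**
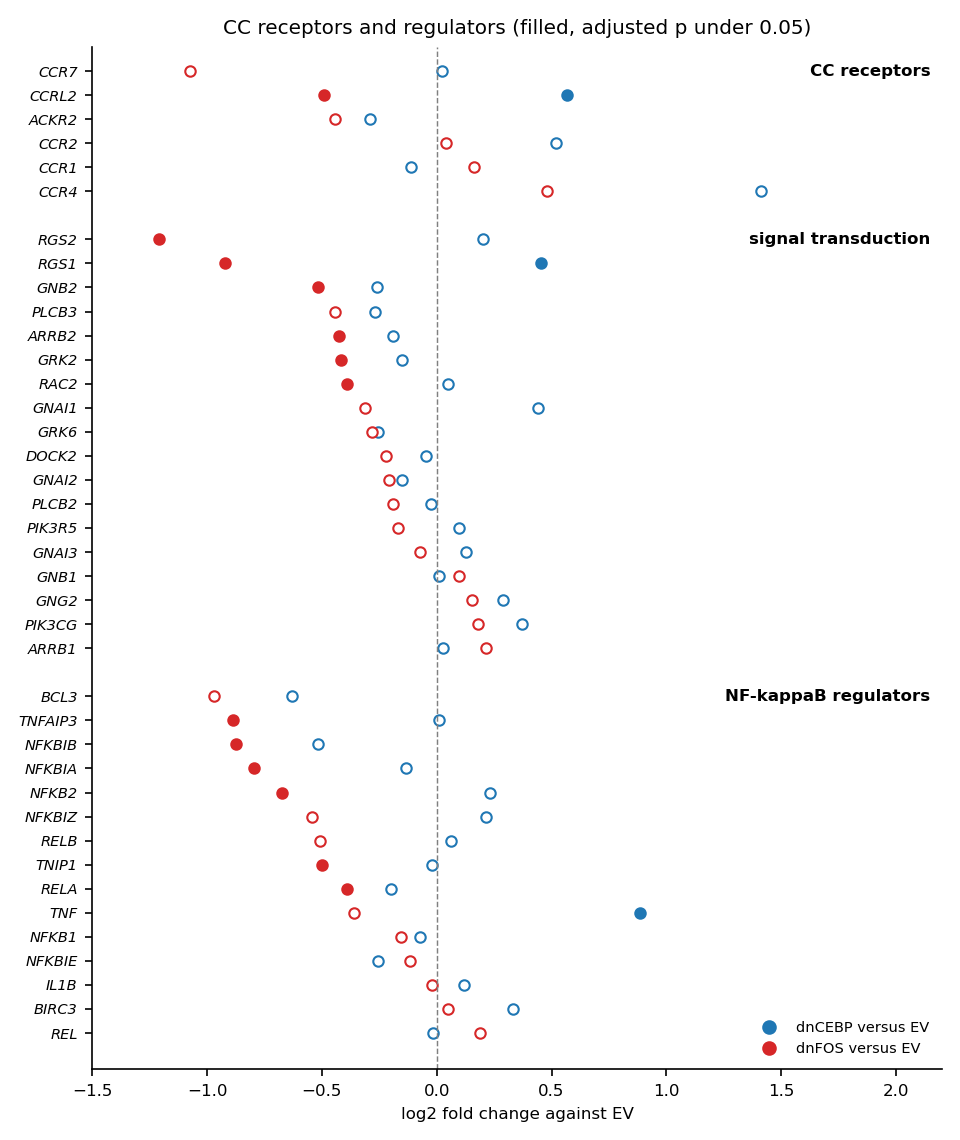
Log2 fold change against EV (horizontal axis) of the tested CC receptors, signal transduction genes and NF-kappaB regulators, in dnCEBP (blue) and dnFOS (red), filled where the adjusted p was under 0.05. CCRL2 and RGS1 have filled points on both sides of 0, and the filled dnFOS points of all 3 lists lie below 0.

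Patterns across the 6 libraries were described by Pearson r of log2 CPM, over points that share their group. CCL2 ran closely with CCL4L2 (r = 0.977) and CCL3 (r = 0.970), and CCL3 with CCL3L1 (r = 0.972). CCL28 had r between -0.13 and 0.50 with the other 7. Out of 12753 genes of at least 1 CPM, those most like CCL2 were STN1 (r = 0.999), PLIN2 (r = 0.997) and CD63 (r = 0.997). Most like the sum of CCL3 and CCL3L1 were GAB2, COX5A and MARS (r = 0.996 to 0.998), and most like the sum of CCL4 and CCL4L2 were RAD52, CTNNBL1 and ZNF18 (r = 0.994 to 0.996). For CCL5 they were SPATA6, NPRL2 and ASIC4 (r = 0.988 to 0.995), for CCL23 PYROXD2, KBTBD4 and TERF2IP (r = 0.989 to 0.991) and for CCL28 YWHAZ, CLIC4 and SECISBP2L (r = 0.991 to 0.994). With 6 points, the highest of so many r values are close to 1 by selection.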

How the data were processed

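The 6 RNA libraries, 2 per group, were grouped by their labels. The deposited values are raw counts per Ensembl gene ID, made by the authors from 75-base paired-end reads of ribosome-depleted total RNA amplified over 15 cycles. The submitters' processing notes name Trimmomatic, HISAT2, featureCounts, Subread and hg38. The strand setting and the treatment of reads with several matches are not given in the sources used here, which bears on copied and overlapping genes. Of 60612 IDs, 58394 matched GENCODE 29 (GRCh38), which gave symbols, coordinates and exon lengths.

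The test was that of edgeR 4.0.16 (R 4.3.3). filterByExpr with a minimum count of 10 kept at least 99.889% of each library's counts, and libraries were scaled by TMM (factors 0.956 to 1.05). All 6 libraries entered a robust quasi-likelihood model of group means (3 residual degrees of freedom), with two-sided tests adjusted by Benjamini-Hochberg over 15395 genes. An adjusted p under 0.05 made a call. Pair sums came from the same fit with each pair as 1 gene (15393 genes). The scripts were tested on simulated data.

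CPM values use scaled library sizes, and CPM per kb divides by the exon length over all annotated transcripts of a gene. Floors of 3 counts use total counts. Overlap of groups was read from CPM. Copies were aligned with Biopython 1.88. For correlations a prior count of 2 was added. Promoters span 250 bases before to 50 after each RefSeq start.

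The members and lists were chosen with earlier results of these data known. All 8 members were named. From the lists of receptors, signal transduction genes and NF-kappaB regulators, up to 4 called genes with the smallest adjusted p in any comparison were named, from the neighbours up to 5 called genes, and for each ligand the 3 genes with the highest r. Alternatives were DESeq2 1.42.0, a filter at a mean of 1 CPM or none, scaling by library totals or by the median of ratios, limma-voom (limma 3.58.1), the 4 libraries compared, the replicate number as a block, a trend on GC content and length removed (mgcv 1.9.3), summed copies and each library left out. Some items of the lists and sequences are not reported here.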

Additional observations from a re-analysis of the deposited data

How the results depend on the processing

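CCL2, CCL3, CCL3L1, CCL4L2 and both pair sums kept their direction and their call in dnFOS versus EV and in dnFOS versus dnCEBP under each alternative run. The number of ligands called without 1 library was 4 in each case for dnFOS versus EV, 0 to 1 for dnCEBP versus EV and 4 to 6 for dnFOS versus dnCEBP. For all genes, 165 were called in dnCEBP versus EV, against 255 without the low-count filter, 297 with the 4 libraries compared and 251 with the trend on GC content and length removed. Leaving out libraries gave 33 to 314 calls there (81 without EV replicate 1, 53 without EV replicate 2, 257 without dnCEBP replicate 1, 33 without dnCEBP replicate 2, 311 and 314 without dnFOS replicates 1 and 2). It gave 972 to 2426 in dnFOS versus EV (2309 with all libraries, 972 without dnFOS replicate 2, 1059 without EV replicate 1) and 1182 to 2262 in dnFOS versus dnCEBP (2259 with all libraries, 1182 without dnFOS replicate 2, 1349 without dnCEBP replicate 1). Library totals lowered the share of lower genes among the calls of dnFOS versus dnCEBP from 53.4% to 25.4%. The cause was not tested, and fits without a library that leave a group with 1 sample assume that it varies like the other groups.

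Replicate numbers are shared by the groups, and deviations of same-numbered libraries correlated by 0.0174 to 0.0879. The labels do not say whether same-numbered libraries were handled together, and these values cannot settle it. With the replicate number as a block, 3172, 488 and 3013 genes were called in dnFOS versus EV, dnCEBP versus EV and dnFOS versus dnCEBP, and 4, 1 and 6 ligands. The added ligand was CCL23 in dnFOS versus dnCEBP (adjusted p = 0.0427), which also passed with the 4 libraries compared (0.0372).

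Estimates that were not called changed sign in some settings. With the GC and length trend removed, CCL28 was at -0.0842 in dnFOS versus EV and CCL2 at -0.0222 in dnCEBP versus EV, and under library totals CCL28 was at 0.0261 in dnFOS versus dnCEBP. Without 1 library, in dnFOS versus EV, CCL28 ran from -0.0394 (without dnFOS replicate 2) to 0.113, CCL23 from -0.691 to 0.0385 (without dnFOS replicate 2) and CCL4 from -0.798 to 0.251 (without dnFOS replicate 1). In dnCEBP versus EV, CCL2 ran from -0.0869 (without EV replicate 2) to 0.151, CCL4L2 from -0.222 to 0.0365 (without EV replicate 1), CCL4 from -0.163 (without dnCEBP replicate 1) to 0.962 and the sum of CCL4 and CCL4L2 from -0.148 to 0.107 (without EV replicate 1), with 0.0583 without dnCEBP replicate 2. DESeq2 gave no adjusted p for CCL4 in dnFOS versus EV. The 2 dnFOS libraries are the shallowest, and CCL4 had the largest SE of the 8 ligands in dnFOS versus EV (0.52).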
